A study of Mus musculus with 4 samples.

Results

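The genes described here carry the signal from Toll-like receptors (TLRs) to the transcription factor NF-kB and switch it off again. They are 40 genes taken as a list by name, all found among the 24235 genes of the deposited tables. They were divided by role into 24 adaptors and kinases and 16 NF-kB subunits and inhibitors. These class names are loose. The 16 include other feedback genes such as Tnfaip2 and Birc3, and the 24 include Irak3, whose product restrains the pathway. Macrophages grown with M-CSF from bone marrow of C57BL/6 mice aged 7 weeks gave 4 mRNA libraries. Each of 2 genotypes, wild type (WT) and Sema6D-/-, gave 1 library without and 1 with lipopolysaccharide (LPS), so each of the 4 groups was 1 library. The latter genotype's 2 libraries are called the pair labelled Sema6D-/-. LPS, a cell wall component of bacteria that TLR4 senses, was given at 100 ng/ml for 4 h. Sema6D-/- mice lack the membrane-bound semaphorin Sema6D by their label. The labels do not give the deleted part of the gene, the number of mice behind a library or whether mice were pooled.

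With 1 library per group no difference had a replicate check, and every value describes these 4 libraries only. A gene is called higher or lower here where it differed by 2-fold or more on the scale of log2(FPKM + 1). FPKM counts fragments relative to transcript length and a scaling factor of the library, so levels of different genes can be set side by side. This factor did not follow depth. By estimate 1 FPKM stood for 30.95 and 20.2 fragments per kilobase in WT without and with LPS, and 22.35 and 16.5 in the other pair. The estimated fragments were 23.5, 22.1, 17.3 and 21.3 M in the same order, so ratios between libraries are not corrected for depth alone. A log2 ratio with square brackets leaves out the added 1, and the brackets give its 95% interval for counting error alone. Where a genotype has 2 levels, that without LPS comes first, and LPS ratios are given for WT first. All 40 genes reached the 1 FPKM filter in every library, and their levels lay between 2.29 and 1276 FPKM. Each rested on an estimated 104 to 75012 fragments.

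The labels were checked first. Sema6d itself measured 0.304 FPKM in WT without LPS and 0.219 in WT with LPS, against 0.563 and 0.592 in the pair labelled Sema6D-/-. It was thus low everywhere and not lower where the label names its loss, so the genotype is given below as labelled. Xist, transcribed from the inactive X chromosome, measured 22.3 and 21.4 FPKM in WT and at most 0.0333 in the pair labelled Sema6D-/-. The Y-linked Eif2s3y showed the reverse, with at most 0.0207 FPKM in WT and 33.5 and 50.4 in the others, so sex and genotype cannot be told apart. All 8 macrophage markers were measured in every library, and by genotype 0 of them were called without LPS. With LPS, Mertk was higher in the library labelled Sema6D-/- (61.3 against 14.9 FPKM in WT) and Itgam lower (265 against 538). The 8 neutrophil and progenitor markers summed to 828 and 1272 FPKM in WT without and with LPS and to 234 and 359.8 in the pair labelled Sema6D-/-. Of 5 dendritic cell markers 1 (Xcr1) reached 1 FPKM, and each lymphocyte, mast cell and stromal marker stayed under 1 FPKM in every library.

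TLR4 signals through adaptor pairs. MyD88, brought to the membrane by TIRAP, gathers IRAK kinases and the ubiquitin ligase TRAF6, which activate the TAK1 complex and then the IKK complex. IKK marks inhibitory IkB proteins for destruction and so frees NF-kB dimers to enter the nucleus. TRIF, brought by TRAM, leads to TBK1 and IKK epsilon, the kinases that switch on interferon genes. NF-kB also drives transcription of its own inhibitors and of A20, a ubiquitin-editing enzyme, which closes a negative feedback loop.

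The class of NF-kB subunits and inhibitors was nearly all higher with LPS in both genotypes, while most members of the class of adaptors and kinases were not. In WT 15 of 16 subunit and inhibitor genes were higher and 0 lower, with a median log2 ratio of 2.18. Of the 24 adaptors and kinases 10 were higher and 0 lower, with a median of 0.46. Over all 10375 genes tested 10.7% were higher and 4.85% lower, with a median of -0.00. In the pair labelled Sema6D-/- 16 of 16 subunits and inhibitors were higher (median 2.23), as were 10 of 24 adaptors and kinases (median 0.89), and 1 of the latter was lower. There 14.0% of 10398 genes were higher and 8.81% lower, with a median of 0.01.

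**Figure D1:**
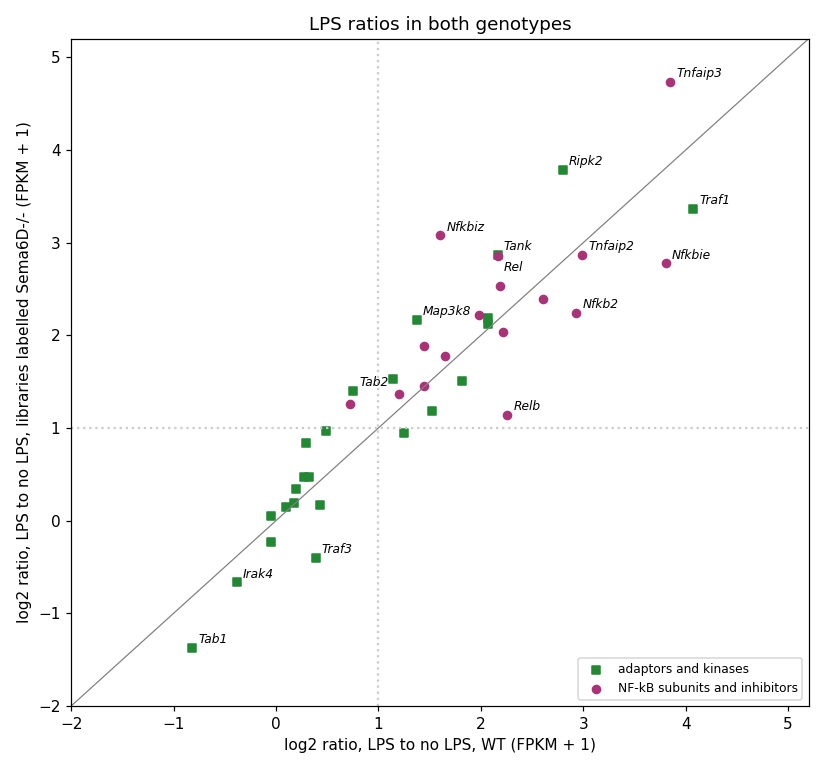
Each point is 1 gene, with its log2 ratio of LPS to no LPS in WT on the x axis and in the pair labelled Sema6D-/- on the y axis. Squares are the 24 adaptors and kinases and circles the 16 NF-kB subunits and inhibitors, dotted lines mark 2-fold higher and the diagonal marks equal ratios. Tab1 lies lowest in both genotypes (-0.82 and -1.37), and Traf1 (4.08 in WT) and Tnfaip3 (4.74 in the pair labelled Sema6D-/-) lie farthest out.

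Among the members the calls were largely shared. Of the 25 members higher in WT 24 (96%) were also among the 26 higher in the pair labelled Sema6D-/- (92.3% of those). Irak3 was called in WT alone, and Nfkbid and Tab2 in the pair labelled Sema6D-/- alone. The same overlap over all genes is not given here, so whether it is particular to these members is not known. The summed level of the 16 subunits and inhibitors was 498 FPKM in WT without LPS, 2476 in WT with LPS, 810 in the library labelled Sema6D-/- without LPS and 4706 in that with LPS. The sums for the 24 adaptors and kinases were 557, 1512, 640 and 2148 FPKM in the same order. By these sums the first class was the lower one in unstimulated WT and the higher one in the other 3 libraries. Sums lean on abundant genes. Tnfaip2 alone (174 FPKM) exceeded the gap between the sums in the library labelled Sema6D-/- without LPS. By the median level of its genes the first class was the higher one in every library, with 22.5 against 15.3 FPKM in unstimulated WT.

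The size of these responses depended on how the libraries are scaled to each other. Rescaling each library to a common total moved the LPS ratios by -0.53 in WT and -0.76 in the pair labelled Sema6D-/-, whereas centring on the median of the 6110 genes with at least 5 FPKM in all 4 libraries took off 0.11 and 0.15. With a common total the medians of adaptors and kinases became -0.05 and 0.15, and those of subunits and inhibitors 1.66 and 1.49. In WT 6 adaptors and kinases were then higher and 1 lower, and in the pair labelled Sema6D-/- 6 were higher and 3 lower. Of the 16 subunits and inhibitors 12 were then higher and 0 lower in each genotype. The shares of all genes called with a common total are not given here.

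**Figure D2:**
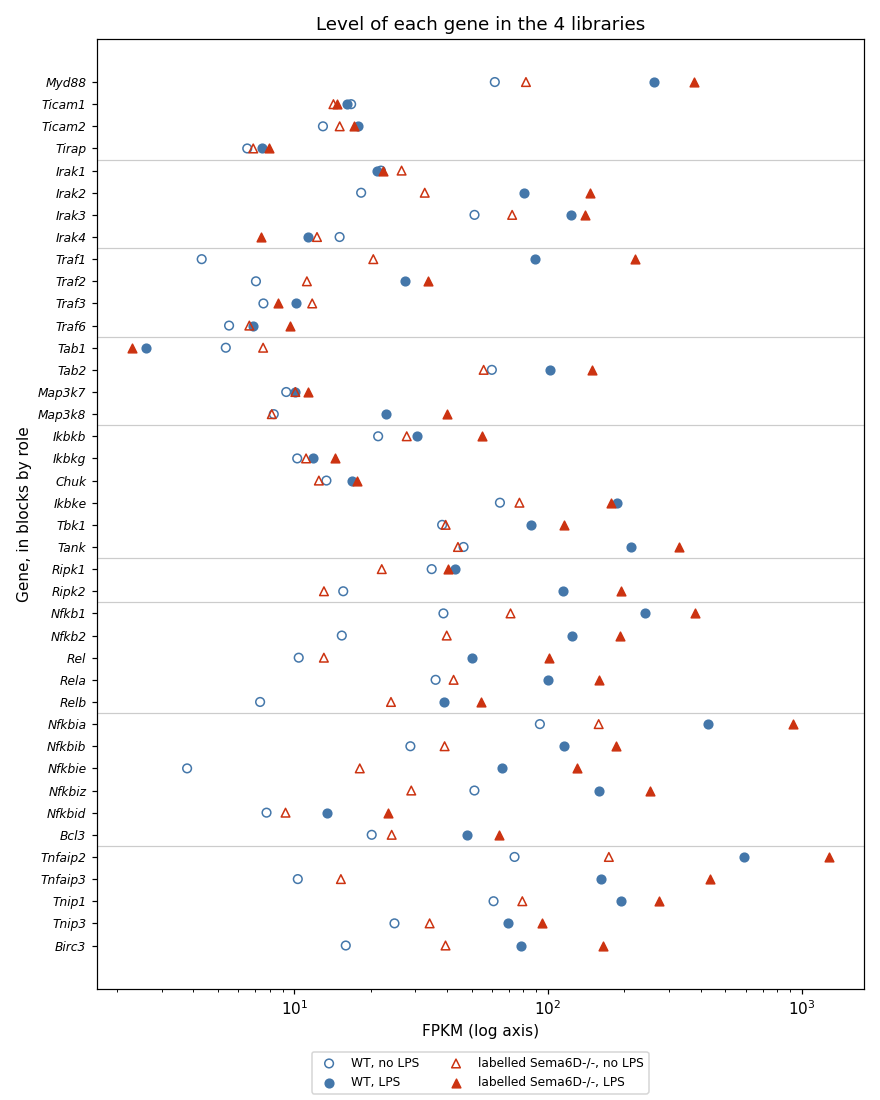
FPKM on a log axis for each of the 40 genes (rows, in blocks by role) in each library. Circles are WT and triangles the pair labelled Sema6D-/-, open without LPS and filled with LPS. Tnfaip2 reaches the highest level at 1276 FPKM and Tab1 the lowest at 2.29 FPKM, both in the library labelled Sema6D-/- with LPS.

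Among the adaptors, Myd88 alone was higher with LPS. It measured 61.7 FPKM in WT without LPS, 263 in WT with LPS, 81.8 in the library labelled Sema6D-/- without LPS and 377 in that with LPS. Both LPS libraries were above both unstimulated ones, at 4.26-fold in WT (2.09 [2.03, 2.15]) and 4.61-fold in the pair labelled Sema6D-/- (2.21 [2.15, 2.26]). Ticam1, which encodes TRIF, measured 16.7, 16.2, 14.3 and 14.8 FPKM in the same order, and its intervals for LPS included 0 in both genotypes. Ticam2, which encodes TRAM, had LPS ratios of 0.43 and 0.17, and Tirap 0.17 and 0.19, all of which turned negative with a common total. The level of Myd88 relative to Ticam1, in which no scaling between libraries enters, was 3.68 and 16.2 in WT and 5.74 and 25.6 in the pair labelled Sema6D-/-. Exons of Ticam2 overlap those of Tmed7 on the same strand, so its values are uncertain.

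The IRAK kinases moved apart from each other. Irak2, a kinase that sustains signalling, measured 18.3 FPKM in WT without LPS, 80.4 in WT with LPS, 32.6 in the library labelled Sema6D-/- without LPS and 146 in that with LPS. Irak4, the first kinase of the chain, measured 15.1, 11.3, 12.3 and 7.38 FPKM in the same order. It was the lowest in the LPS library of each genotype, at -0.41 [-0.55, -0.27] in WT and -0.73 [-0.93, -0.54] in the pair labelled Sema6D-/-, short of 2-fold in both. Irak3, whose product IRAK-M restrains the pathway in macrophages, was the most abundant IRAK in 3 libraries at 51.3, 123 and 72.2 FPKM, and followed Irak2 in the library labelled Sema6D-/- with LPS at 140 FPKM. Irak1 had LPS ratios of -0.05 and -0.24. It is one of the 2 X-linked members, with Ikbkg, and its genotype ratios were 0.26 without LPS and 0.07 with LPS.

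The TRAF genes held the widest spread. Traf1, an NF-kB target whose product modulates signalling by TNF receptors, measured 4.31 FPKM in WT without LPS, 88.6 in WT with LPS, 20.5 in the library labelled Sema6D-/- without LPS and 220 in that with LPS. Its LPS ratio was 20.5-fold in WT (4.36 [4.19, 4.54]) and 10.7-fold in the pair labelled Sema6D-/- (3.43 [3.33, 3.52]). Traf6, the ligase of the MyD88 branch, measured 5.53, 6.87, 6.65 and 9.61 FPKM in the same order and stayed under 2-fold. Traf3, which restrains alternative NF-kB signalling and serves the interferon branch, measured 7.55, 10.2, 11.8 and 8.65 FPKM. It was higher in the LPS library of WT and lower in that labelled Sema6D-/-, in each case by less than 2-fold. With a common total its WT ratio was -0.09, so both genotypes then had it lower with LPS. Traf2, an adaptor of TNF receptors, had LPS ratios of 1.82 and 1.51.

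Of the TAK1 complex and TPL2, only the last was higher in both genotypes. Map3k8, which encodes TPL2, the kinase upstream of ERK that is held by the p105 precursor, measured 8.30 FPKM in WT without LPS, 23.1 in WT with LPS, 8.15 in the library labelled Sema6D-/- without LPS and 40.1 in that with LPS. Tab1, a TAK1 activator, was the one member called lower with LPS in either genotype, with 5.37, 2.61, 7.53 and 2.29 FPKM in the same order. Its LPS ratio was -1.04 [-1.32, -0.77] in WT, a value short of 2-fold once 1 was added (-0.82), and -1.72 [-2.04, -1.41] in the pair labelled Sema6D-/-. Map3k7, TAK1 itself, had LPS ratios of 0.10 and 0.15. Tab2, which couples TAK1 to ubiquitin chains, had 0.75 and 1.40.

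The IKK complex differed from the related kinases of the interferon branch. Chuk, Ikbkb and Ikbkg, the catalytic pair and the scaffold NEMO, had LPS ratios between 0.19 and 0.97 in both genotypes and none was called. Ikbkg measured 10.3, 11.9, 11.1 and 14.4 FPKM in WT without and with LPS and in the pair labelled Sema6D-/- without and with LPS. Ikbke, which encodes IKK epsilon, was the most abundant of the 24 genes in unstimulated WT at 64.6 FPKM, with 188 in WT with LPS and 77.1 and 177 in the pair labelled Sema6D-/-. Tank, a scaffold of these kinases, measured 46.4 and 212 FPKM in WT and 44.1 and 328 for the others, a 4.56-fold and a 7.43-fold ratio. Tbk1 had LPS ratios of 1.14 and 1.53.

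The RIP kinases parted in the same way. Ripk2, which serves the NOD receptors, measured 15.6 FPKM in WT without LPS, 114 in WT with LPS, 13.1 in the library labelled Sema6D-/- without LPS and 194 in that with LPS. These are ratios of 7.33-fold (2.87 [2.78, 2.97]) and 14.8-fold (3.89 [3.78, 4.00]). Ripk1, which acts downstream of TNF receptor and TRIF, measured 34.8, 42.9, 22.1 and 40.2 FPKM and was not called. Its exons overlap those of Serpinb6a on the opposite strand (313, 256, 117 and 109 FPKM), and whether counting used strand is not given in the sources used here.

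All 5 NF-kB subunits were higher with LPS in both genotypes. Nfkb1, the p105/p50 gene, was the most abundant of them in every library, with 38.7 and 240.0 FPKM in WT and 71.1 and 378 for the pair labelled Sema6D-/-. Nfkb2, the p100/p52 gene of the alternative pathway, measured 15.4 and 124 FPKM in WT and 39.9 and 192 for the others. Rel, which encodes c-Rel, measured 10.4 and 50.2 FPKM in WT and 13.1 and 101 for the others. The LPS libraries were above the unstimulated ones for each of these. Rela, the p65 gene, measured 36.0, 100.1, 42.4 and 159 FPKM and had the smallest ratio in WT (1.45). Relb, the partner of p52, measured 7.33, 38.9, 24.0 and 54.3 FPKM and had the smallest ratio in the pair labelled Sema6D-/- (1.14).

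The make-up of the subunit pool, counted within a library and so free of scaling between libraries, shifted with LPS away from Rela. Rela made up 33.4% of the summed FPKM of the 5 genes in unstimulated WT and 18.1% with LPS, and 22.3% and 17.9% in the pair labelled Sema6D-/-. Nfkb1 went from 35.9 to 43.4% and from 37.3 to 42.8%. Relb held 6.80 and 7.03% in WT and 12.6 and 6.14% in the pair labelled Sema6D-/-, so its share was largest in the unstimulated library with that label. These shares are of transcripts per length, not of proteins.

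**Figure D3:**
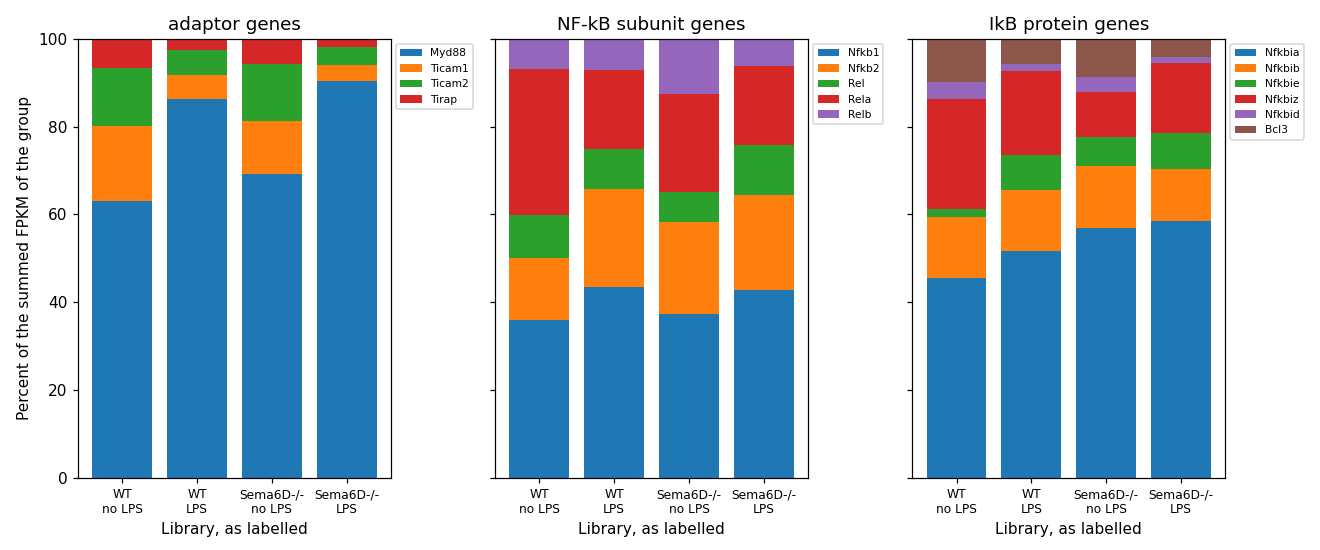
Stacked bars give the percent of the summed FPKM of the adaptors (left), NF-kB subunits (middle) and IkB proteins (right) that each gene held in each library as labelled. Myd88 takes 86.4 and 90.4% of the adaptor sum with LPS, and Rela takes its largest share, 33.4%, in WT without LPS.

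The IkB genes, which encode the inhibitors and their nuclear relatives, were led by Nfkbia. This gene of IkB alpha measured 92.8 FPKM in WT without LPS, 426 in WT with LPS, 158 in the library labelled Sema6D-/- without LPS and 923 in that with LPS. It held 45.4 to 58.5% of the summed FPKM of the 6 genes. Nfkbie, the gene of IkB epsilon, had the widest range of the group, with 3.78, 65.9, 18.1 and 130 FPKM in the same order. It was 17.4-fold higher with LPS in WT (4.12 [3.94, 4.31]) and 7.17-fold higher in the pair labelled Sema6D-/- (2.84 [2.74, 2.95]).

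The nuclear IkB proteins tune transcription at chosen promoters. LPS ratios of their genes ran from 0.72 to 1.61 in WT and from 1.26 to 3.08 in the pair labelled Sema6D-/-. Nfkbiz, the gene of IkB zeta, needed for a later wave of LPS-induced genes in mouse macrophages, measured 51.3 FPKM in WT without LPS, 158 in WT with LPS, 28.9 in the library labelled Sema6D-/- without LPS and 251 in that with LPS. The 4 values are ordered by LPS first, and the library labelled Sema6D-/- was the lower one without LPS and the higher one with it. Nfkbid, the gene of IkBNS, was the weakest responder, with 7.77, 13.5, 9.23 and 23.5 FPKM. Bcl3, which binds p50 and p52 dimers, had LPS ratios of 1.20 and 1.37, and Nfkbib, the gene of IkB beta, 1.98 and 2.22.

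The feedback genes included the member with the highest level of all, Tnfaip2. Tnfaip3, which encodes A20, measured 10.3 FPKM in WT without LPS, 162 in WT with LPS, 15.3 in the library labelled Sema6D-/- without LPS and 433 in that with LPS. Its ratio of 28.4-fold in the pair labelled Sema6D-/- (4.83 [4.75, 4.90]) was the largest of the 40 genes there, and it was 15.7-fold in WT (3.98 [3.89, 4.06]). Tnfaip2, a gene induced by TNF and LPS, was the most abundant member in 3 libraries, with 73.8 and 592 FPKM in WT and 174 and 1276 for the others. In unstimulated WT it came second, after Nfkbia.

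A20 works with the ABIN proteins, which bind ubiquitin chains. Tnip1, the ABIN1 gene, had LPS ratios of 1.65 and 1.78. The level of Tnfaip3 relative to Tnip1 was 0.169 and 0.839 in WT and 0.193 and 1.58 in the pair labelled Sema6D-/-. Tnip3, the ABIN3 gene, measured 24.8 and 69.2 FPKM in WT and 34.1 and 94.98 for the pair labelled Sema6D-/-. Birc3, which encodes the ubiquitin ligase cIAP2, measured 15.9 and 78.0 FPKM in WT and 39.4 and 165 for the others. The LPS libraries were above the unstimulated ones for all 5 feedback genes in both genotypes.

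Because many of these genes are known to be driven by NF-kB itself, their promoters are shown beside the responses. RefSeq promoter windows of GRCm38.p6, from 250 bases before to 50 after the start, matched 32 of the 40 genes. Without a window were Ticam2, Tab1, Map3k8, Ikbkb, Ripk2, Nfkb1, Relb and Nfkbiz. The NF-kB consensus of 10 letters was searched on both strands, a palindromic match was counted once, and overlapping matches were allowed. Matches stand in capitals in the 5 windows below, written 5′ to 3′ on the strand of the gene. Nfkbia (chr12:55492598-55492897, minus strand) and Tnfaip3 (chr10:19015361-19015660, minus strand) are shown as the most abundant IkB gene and the gene with the largest LPS ratio in the pair labelled Sema6D-/-. Nfkb2 (chr19:46304487-46304786, plus strand), Nfkbie (chr17:45555450-45555749, plus strand) and Traf1 (chr2:34961723-34962022, minus strand) are shown as genes also higher in the library labelled Sema6D-/- without LPS.
Nfkbia: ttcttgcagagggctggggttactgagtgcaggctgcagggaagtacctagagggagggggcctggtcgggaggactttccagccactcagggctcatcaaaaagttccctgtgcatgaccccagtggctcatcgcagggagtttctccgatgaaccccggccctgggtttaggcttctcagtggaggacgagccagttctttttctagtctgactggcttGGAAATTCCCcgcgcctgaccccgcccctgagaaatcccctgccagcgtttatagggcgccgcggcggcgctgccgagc
Tnfaip3: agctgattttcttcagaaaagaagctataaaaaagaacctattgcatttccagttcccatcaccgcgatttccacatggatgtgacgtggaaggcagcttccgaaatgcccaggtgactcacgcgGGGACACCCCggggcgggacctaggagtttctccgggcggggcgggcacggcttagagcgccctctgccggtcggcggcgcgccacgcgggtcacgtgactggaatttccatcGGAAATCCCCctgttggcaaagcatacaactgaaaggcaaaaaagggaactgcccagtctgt
Nfkb2: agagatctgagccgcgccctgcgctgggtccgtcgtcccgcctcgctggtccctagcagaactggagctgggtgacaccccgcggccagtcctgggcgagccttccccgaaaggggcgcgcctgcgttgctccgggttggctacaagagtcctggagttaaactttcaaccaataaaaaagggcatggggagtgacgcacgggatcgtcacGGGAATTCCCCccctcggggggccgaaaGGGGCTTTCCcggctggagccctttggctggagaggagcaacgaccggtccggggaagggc
Nfkbie: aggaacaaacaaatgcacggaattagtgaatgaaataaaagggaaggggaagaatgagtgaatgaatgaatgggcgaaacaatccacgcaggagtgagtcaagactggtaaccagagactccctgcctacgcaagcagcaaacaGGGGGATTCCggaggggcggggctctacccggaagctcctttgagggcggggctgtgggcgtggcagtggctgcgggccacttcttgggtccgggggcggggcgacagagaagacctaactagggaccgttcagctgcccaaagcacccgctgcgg
Traf1: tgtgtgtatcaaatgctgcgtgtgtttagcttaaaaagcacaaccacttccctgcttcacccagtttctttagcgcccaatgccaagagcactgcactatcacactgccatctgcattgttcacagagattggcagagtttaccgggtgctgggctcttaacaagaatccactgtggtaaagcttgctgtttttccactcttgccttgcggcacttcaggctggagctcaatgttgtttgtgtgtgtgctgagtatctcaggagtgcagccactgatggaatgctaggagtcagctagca

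The Nfkbia window held 1 match at position -29, Tnfaip3 2 and Nfkb2 3, of which 2 overlap, while Traf1 held none within these 300 bases. A match was found for 14 of the 32 genes (43.75%), against 9.55% of the 27025 genes in the table and 8.46% of its 32851 windows. By class these were 10 of 13 subunits and inhibitors and 4 of 19 adaptors and kinases. Of the 19 genes higher with LPS in both genotypes 10 held a match, and of the other 13 genes 4 did, which were Irak1, Map3k7, Traf3 and Nfkbid. This split follows the classes. Among adaptors and kinases Tank alone was higher in both genotypes and held a match, while Irak1, Map3k7 and Traf3 held one and were not. Of the subunits and inhibitors with a window all but Nfkbid were higher in both, so no comparison was possible within that class. A match describes letters in a window and shows neither binding nor a cause, and a window without one may have sites elsewhere.

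Calls by genotype were fewer, and all of them were higher in the pair labelled Sema6D-/-. Ratios short of the rule went both ways. Of the 40 members 31 had a genotype ratio above 0 without LPS and 33 with LPS. Without LPS 6 members were higher in the library labelled Sema6D-/- and 0 lower, 1 of 24 adaptors and kinases (median 0.16) and 5 of 16 subunits and inhibitors (median 0.48). Over all 10322 genes tested 2.51% were higher and 2.19% lower, with a median of 0.04. The 6 were Traf1, Nfkb2, Relb, Nfkbie, Tnfaip2 and Birc3. Traf1 was 4.75-fold higher (2.25 [2.05, 2.44]) and Nfkbie 4.79-fold (2.26 [2.06, 2.47]). Relb was 3.28-fold higher (1.71 [1.55, 1.88]), Nfkb2 2.59-fold, Birc3 2.47-fold and Tnfaip2 2.35-fold.

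Among genes outside these 6, Nfkb1 came closest to the rule (0.86) and Nfkbiz lay lowest (-0.81). Both subunits of the alternative pathway, Nfkb2 and Relb, were among the 6, whereas Rela (0.23) and Rel (0.30) were not. Adaptors stayed between -0.22 and 0.40. Beside these ratios, 5 of 7 measured neutrophil and progenitor markers were lower in the library labelled Sema6D-/-, with Ly6g under 1 FPKM in all 4 libraries. Their part in the result was not tested, and in bulk RNA fewer cells of a type cannot be told apart from less RNA per cell.

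**Figure D4:**
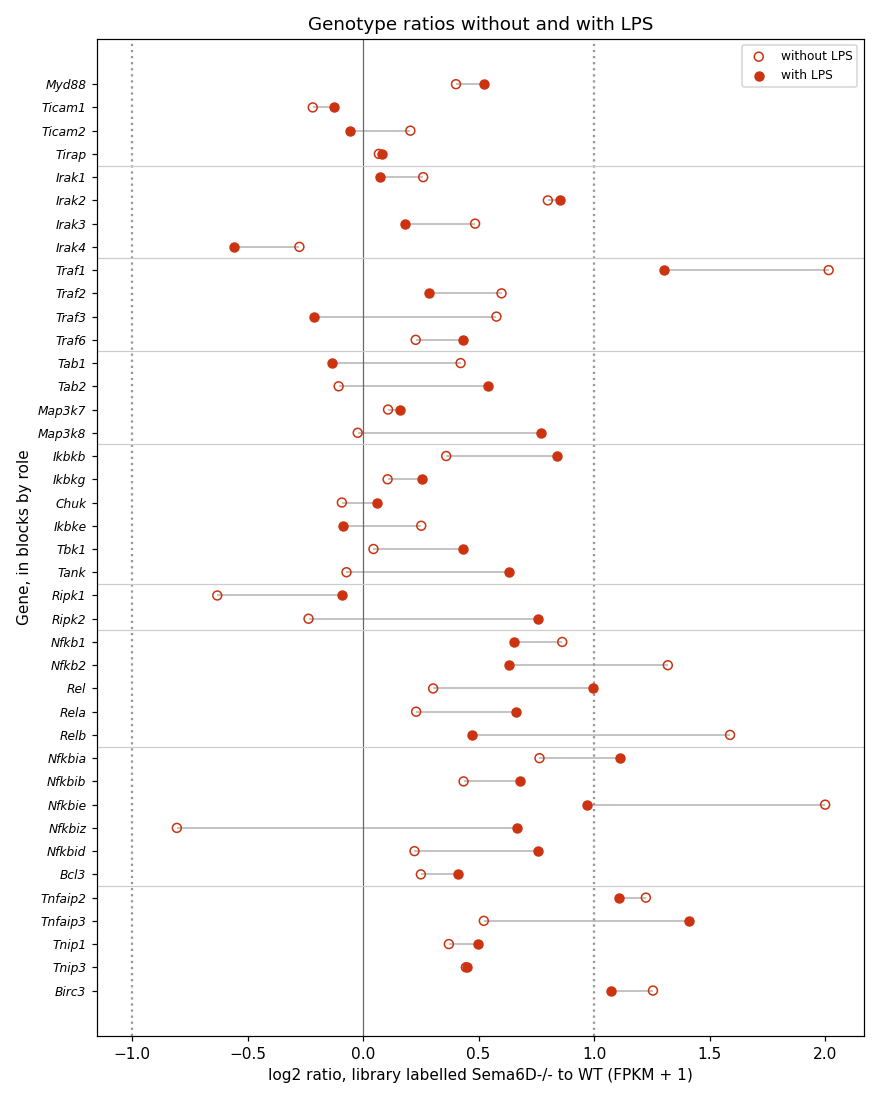
For each gene the open circle is the log2 genotype ratio without LPS (labelled Sema6D-/- over WT) and the filled circle that with LPS, joined by a line, in blocks by role. Dotted lines mark 2-fold, which Traf1, Tnfaip2 and Birc3 pass in both states and which no gene passes on the lower side.

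With LPS 5 members were higher in the library labelled Sema6D-/- and 0 lower, 1 of 24 adaptors and kinases (median 0.22) and 4 of 16 subunits and inhibitors (median 0.67). Over all 10078 genes tested 3.09% were higher and 3.18% lower, with a median of 0.04. The 5 were Traf1 (2.48-fold), Tnfaip3 (2.67-fold), Nfkbia (2.17-fold), Tnfaip2 (2.15-fold) and Birc3 (2.12-fold). Rel fell just outside at 0.996 and Birc3 just inside at 1.07. All 16 subunits and inhibitors had a ratio above 0, from 0.41 for Bcl3 to 1.41 for Tnfaip3, against 17 of 24 adaptors and kinases. Of all 10078 genes tested 5560 had a ratio above 0. A common total turned 5 of the adaptors and kinases negative, namely Tirap, Irak1, Irak3, Map3k7 and Chuk. With a common total the medians were 0.44 for subunits and inhibitors and -0.00 for adaptors and kinases, and 1 of the 16 was called in place of 4.

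Both genotype lists shared 3 genes, Traf1, Tnfaip2 and Birc3, which is 50% of the list without LPS and 60% of that with LPS. These are short lists, and the overlap of the lists over all genes is not given here. With LPS 6 of 7 measured neutrophil and progenitor markers were lower in the library labelled Sema6D-/-, and their part in the result was not tested. Irak4 had the lowest ratio of the 40 genes with LPS, at -0.62 [-0.82, -0.42].

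The difference of the LPS responses (pair labelled Sema6D-/- minus WT) was 2-fold or more for 3 members. Nfkbiz responded more strongly in the pair labelled Sema6D-/-, with 3.08-fold in WT and 8.70-fold there, a difference of 1.47 on the scale with the added 1 and an interval of [1.42, 1.58] without it. Relb had the smaller one, with 5.30-fold and 2.26-fold and a difference of -1.23 [-1.42, -1.04]. For Nfkbie the folds were 17.4 and 7.17 and the difference -1.28 [-1.49, -1.07]. So 1 of 40 members was more induced and 2 less, against 1.83% and 1.25% of all 10680 genes tested, and 0 of 24 adaptors and kinases was called either way.

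The genotype ratios behind these differences were not alike. The difference of the responses is the genotype ratio with LPS less that without LPS, so the ratios restate it, and a cause was not tested. Relb and Nfkbie were already higher in the unstimulated library labelled Sema6D-/- and had genotype ratios of 0.47 and 0.97 with LPS. Nfkbiz was lower without LPS (-0.81) and higher with LPS (0.67). Ripk2 lay just outside the rule at 0.99 with the added 1 and at 1.01 [0.87, 1.15] without it. The medians of the difference were 0.07 for adaptors and kinases and 0.14 for subunits and inhibitors, both of which turned negative with a common total (-0.13 and -0.08). The LPS responses and the genotype ratios share libraries and are not independent of each other.

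Transcript variants were listed for 18 of the 40 genes, and 13 of these kept the same leading variant in all 4 libraries. Nfkbiz had a second variant, NM_001159395, whose share of the gene was 6.16 and 32.6% in WT without and with LPS and 13.6 and 34.3% in the pair labelled Sema6D-/-. Its share was thus higher with LPS in both genotypes. Tnfaip3 was split between a pair of variants, and NM_009397 took 60.2 and 55.0% in WT and 50.8 and 75.9% in the others.

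Other genes changed their leading variant between libraries. Tank was led by NM_011529 in 3 libraries (62.9, 72.6 and 70.2%) and by NM_001164072 in that labelled Sema6D-/- without LPS (65.8%). Relb was led by NM_001290457 in 3 libraries, and by NM_009046 in WT without LPS (65.6%), where the whole gene rested on 453 fragments. Tirap gave 100.0% to NM_001177847 in the library labelled Sema6D-/- without LPS and 38.5% in WT without LPS, on 325 and 359 fragments. With the leading transcript only, the genotype ratio of Tirap without LPS was -2.32 in place of 0.07. Variants that share most of their sequence divide reads by a model, so a switch in 1 library is uncertain, and the sums per gene are used elsewhere.

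**Figure D5:**
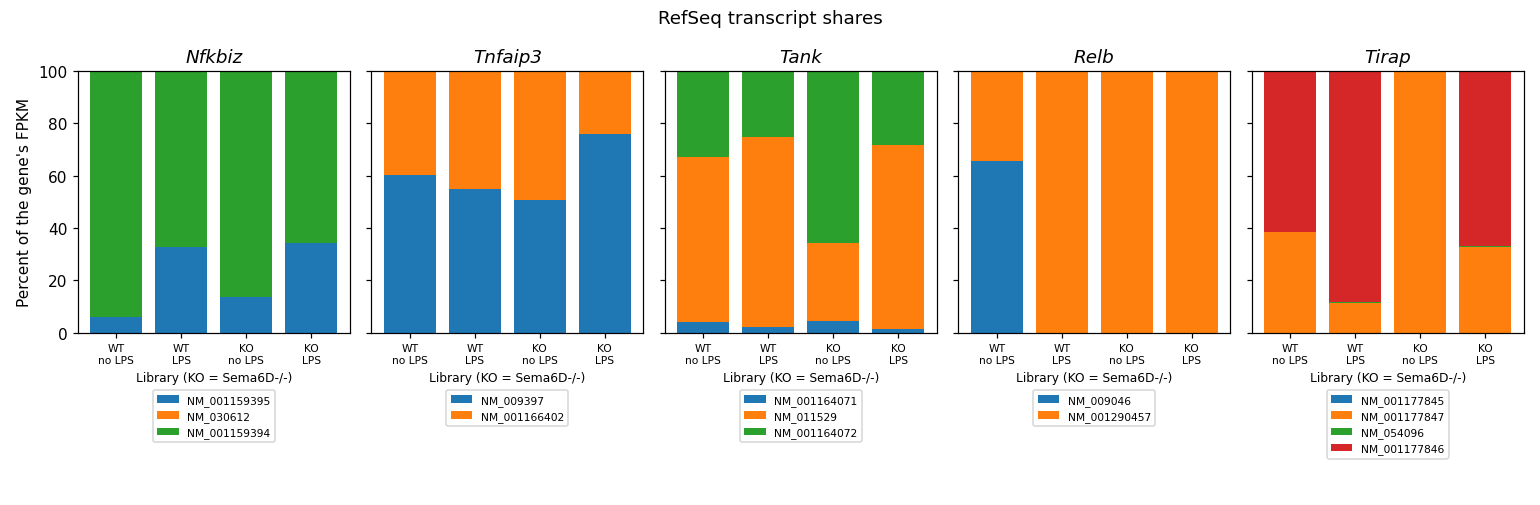
Stacked bars give the percent of a gene's FPKM held by each RefSeq transcript in each library for Nfkbiz, Tnfaip3, Tank, Relb and Tirap, with KO standing for the label Sema6D-/-. The share of NM_001159395 of Nfkbiz is higher with LPS in both genotypes (32.6 and 34.3%).

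A list of 48 further genes of the pathway was set beside the members. At the 1 FPKM filter 44 were measured in at least 1 library, while Traf4, Sarm1, Sigirr and Il1rl1 were under it in all. With LPS 10 of 43 were higher and 1 lower in WT (median 0.44), and 14 of 43 were higher and 4 lower in the pair labelled Sema6D-/- (median 0.48). Both medians turned negative with a common total (-0.11 and -0.14). Socs1, an inhibitor of cytokine receptor signalling, had the highest ratios (6.01 and 5.86), followed by Peli1, a ubiquitin ligase that acts on IRAKs and TRAFs (3.19 and 3.72). N4bp1, a restraint on NF-kB signalling, had 2.21 and 1.92 and Rnf31, the catalytic subunit of the linear ubiquitin ligase, 2.19 and 2.21.

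The lowest ratios of that list were those of Map3k14, the NIK kinase of the alternative pathway. It measured 8.59 and 2.05 FPKM in WT and 7.75 and 1.06 for the pair labelled Sema6D-/- (-1.65 and -2.09). Card9 (-0.83 and -1.32), Peli2 (-0.77 and -1.40) and Ecsit (-0.76 and -1.30) followed in both genotypes. Otulin, which removes linear ubiquitin chains, had -0.55 in WT, and Tbkbp1 -0.76 in the pair labelled Sema6D-/-.

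By genotype none of 43 further genes was called without LPS, and with LPS 1 of 42 was. This was Malt1, a protease that cleaves A20, with 6.92 and 47.6 FPKM in WT and 14.4 and 182 for the pair labelled Sema6D-/-. Its LPS ratios were 2.62 and 3.57 and its genotype ratio with LPS 1.91. None of 44 was called for the difference of the responses.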

How the data were processed

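The authors deposited 1 table per library with 1 FPKM value for each of 34487 RefSeq transcripts. The mouse build was mm9, and Cuffnorm 2.2.1, TopHat2 2.0.13, SAMtools 0.1.19 and Bowtie2 2.2.3 are named, per the submitters' processing notes. Their options, the annotation version and the scaling between libraries are not given in the sources used here. The labels name different RNA extraction reagents, and LPS appears in the treatment field of all 4 samples, so the word non in titles was taken to mean without LPS.

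Gene symbols were found in RefSeq (GRCm38) for 34163 transcripts and in GENCODE for 187 more, and 137 unmatched transcripts were left out. Transcripts were summed per gene. Ratios were taken on log2(FPKM + 1), which understates ratios of low genes, and a gene entered at 1 FPKM in at least 1 library compared. No test across libraries was possible with 1 library per group, so no p-value was computed.

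Fragments were estimated from the steps of low FPKM values of genes with 1 transcript and a GENCODE length. Between 73.1 and 74.9% of these values fell on whole fragments within 0.1, against 20% by chance, and the libraries held an estimated 17.3 to 23.5 M fragments. Intervals at 95% are exact binomial for a ratio and normal on the log scale for a difference of responses, and they cover counting error only.

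The members and lists were chosen with earlier results of these data known. Values in all libraries are given for members called by genotype or in the difference of responses, for the extreme LPS ratios of each role and for the highest level of each class. Of the further genes, those called by genotype and the 5 highest and 5 lowest LPS ratios were to be named. The alternatives were pseudocounts of 0.1 and 5, no filter or one of 5 FPKM, a common total, median centring, the leading transcript only, and 1.5-fold and 3-fold rules. The calls and the fragment estimate were tested on simulated data. Python 3.11.15, numpy 2.4.6, pandas 2.3.3 and scipy 1.17.1 were used.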

Additional observations from a re-analysis of the deposited data

Results flagged for a closer look

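In 5 genes a ratio pointed one way in one genotype or state and the opposite way in the other, with both counting intervals clear of 0. None of these differences was tested, since each group was 1 library. The LPS ratio of Traf3 was 0.43 [0.33, 0.54] in WT and -0.44 [-0.56, -0.33] in the pair labelled Sema6D-/-, and its genotype ratio was 0.64 without LPS and -0.24 with LPS. With a common total the LPS ratio of Traf3 in WT was -0.09, and its LPS ratios no longer had opposite signs. The genotype ratio of Nfkbiz was -0.83 without LPS and 0.67 with LPS, and that of Ripk2 -0.25 and 0.76. For Tab2 the same ratios were -0.11 and 0.54, and for Ikbke 0.26 and -0.0876.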

How the results depend on the processing

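No called ratio of a member changed sign under any of the 7 settings tried per gene. Most of these settings could not have changed one. Another pseudocount or filter leaves the sign of a ratio of 2 libraries as it is, and the leading transcript matters only for the 18 genes with several variants. Of 162 alternative counts of calls 131 stayed within 1.5 times the main count, and the others follow. The share of stable counts says little. All 40 members reached 1 FPKM in every library, so leaving out the filter could not alter a count, and the 5 FPKM filter altered none. Counts of 0 that stayed 0 are also among the 131. With a common total 6 adaptors and kinases were higher with LPS in each genotype (10 in the report), 1 was lower in WT and 3 in the pair labelled Sema6D-/-. With LPS 1 subunit or inhibitor was then higher by genotype. With the leading transcript only, 2 adaptors and kinases were lower with LPS in the pair labelled Sema6D-/-, 3 were higher and 2 lower by genotype without LPS and 1 lower with LPS, and 4 members were more induced. A pseudocount of 0.1 gave 1 adaptor or kinase lower with LPS in WT and 2 members more induced. A pseudocount of 5 left 0 lower with LPS in the pair labelled Sema6D-/- and 0 less induced.

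A 1.5-fold rule gave 1 and 2 adaptors and kinases lower with LPS in WT and in the pair labelled Sema6D-/-. By genotype without LPS it gave 3 of them higher and 1 lower, and 1 subunit or inhibitor lower. By genotype with LPS it gave 6 of them and 12 subunits and inhibitors higher, and 7 members were more and 5 less induced. A 3-fold rule left 6 adaptors and kinases higher with LPS in each genotype and 0 lower in the pair labelled Sema6D-/-. It left 2 subunits and inhibitors higher by genotype without LPS, 0 of either class with LPS, and 0 members more or less induced. Shares of all genes called at these other settings are not given here, so the counts have no background beside them. The causes were not tested.

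No paired analysis was possible because each group was 1 library. Exons of 9 members overlap a measured gene in GENCODE (among them Myd88, Irak3, Nfkb2 and Nfkbib), and whether counting used strand is not given in the sources used here. Depth set a median interval width of 0.116 to 0.200 log2 units for the ratios of members and at most 0.751, for Tab1.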
